A study of Mus musculus with 2 samples.

Results

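The cytosolic ribosomal protein genes are described here in single cells of mouse gastruloids, balls of cultured embryonic stem cells in which a body axis starts to form. Genes were taken by symbol (Rpl or Rps followed by a digit, plus Rpsa, Rplp0, Rplp1 and Rplp2), without kinases and named pseudogenes. Of the 32285 genes listed in each library, 86 had such a symbol, and 83 of them reached the minimum of 1000 UMIs over the cells of both libraries. UMIs are the random tags given to each captured mRNA molecule, so that a count of UMIs is a count of molecules. The 3 genes left out were Rpl39l with 271 UMIs, Rpl10l with 223 and Rpl3l with 33, while the lowest member, Rpl29, had 14484, so no gene lay close to the minimum. By name, 49 members belong to the large subunit and 34 to the small subunit, and they lie on 19 chromosomes.

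The ribosome joins a small subunit, which reads the mRNA, to a large subunit, which forms the peptide bond. Each structural protein is present once per ribosome, except for the acidic stalk proteins, so that cells make these proteins in near-equal numbers. Many of the mRNAs start with a run of pyrimidines (a TOP motif), through which growth signals control their translation together, and several members have a paralog that can take their place.

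Both libraries came from aggregates of about 300 cells of the R1 mouse embryonic stem cell line in serum-free N2B27 medium, one wild type and one with a double knockout (dko) of the transcription factor genes Sp5 and Sp8. All aggregates received 3 µM CHIR, an inhibitor of GSK3 that switches on Wnt signalling, for 12 hours from day 2 and were collected at day 2.5. Aggregates were pooled before dissociation, so each genotype has 1 library and no difference below has a replicate check. Intervals are 95% and cover counting error only.

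The libraries are called here by their labels, WT for wild type and dko. After filtering, 8101 cells with 86433526 UMIs remained in the WT-labelled library and 9690 cells with 84619000 UMIs in the dko-labelled library. The median cell held 10344 and 8416 UMIs, and 27 cell barcodes occurred in both libraries. The deleted genes went against the labels. Sp5 was at 108 CPM (the usual scale of counts relative to the library total) in the WT-labelled library and at 475 CPM in the dko-labelled library, and Sp8 was at 20.7 and 40.2 CPM. Which part of each gene was deleted is not given in the sources used here, and no direction below is drawn from the genotype.

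Ribosomal protein genes took a large part of all UMIs. Their share was 23.96% (23.95 to 23.97) in the WT-labelled library and 24.48% (24.47 to 24.49) in the dko-labelled library. Large subunit genes made up 57.1% and 57.7% of these UMIs. Without mitochondrially encoded genes in the total the shares were 24.9% and 25.5%. In barcodes of only 10 to 100 UMIs, far below the minimum for a cell, the shares were 27.9% and 28.6%.

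Levels differed widely between members although the proteins are needed in near-equal numbers. UMIs are counted at the 3′ end of a transcript, so a CPM level is not divided by transcript length. The level with the highest mean over the libraries was that of Rplp1, a protein of the acidic stalk that recruits elongation factors, at 6424 CPM in the WT-labelled library and 6512 CPM in the dko-labelled library. Next came Rps12 with 6385 and 6311 CPM, Rpl23 with 6145 and 6316 CPM, Rpl13 with 5807 and 5683 CPM, and Rps14, which lines the platform of the small subunit, with 5382 and 5630 CPM. The other stalk proteins were lower, with Rplp0 at 4043 and 4247 CPM and Rplp2 at 4004 and 3832 CPM. The median of the mean level over the 83 members was 2851 CPM.

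The lowest mean level was that of Rpl29, a small peripheral protein of the large subunit, at 77.9 and 72.0 CPM. Rps27rt, a retrogene copy of Rps27, was at 87.2 and 85.2 CPM, Rpl7l1 at 139 and 145 CPM, and Rpl35, which sits by the exit of the peptide tunnel, at 396 and 395 CPM. Rps19bp1 matches the symbol rule but encodes a nucleolar protein that binds the ribosomal protein S19 and is no ribosomal subunit. It was at 76.6 and 89.6 CPM. Ribosomal protein genes have many processed copies in the genome, and how reads that match several copies were counted is not given in the sources used here, so the level of a gene with a near-identical copy is uncertain.

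**Figure D1:**
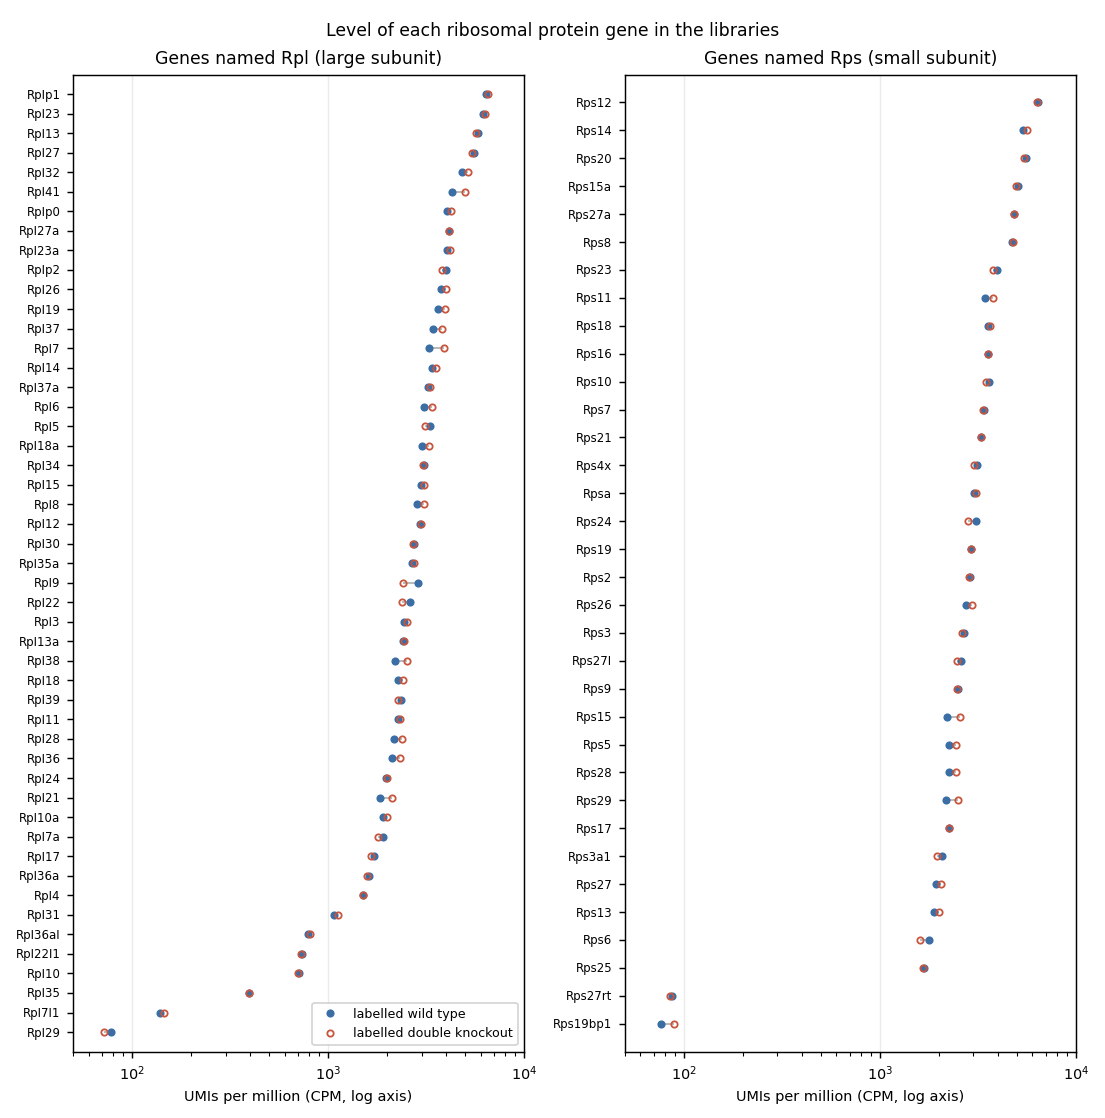
Level of all 83 members in CPM on a log axis, with filled points for the WT-labelled library and open points for the dko-labelled library; Rps19bp1 is drawn with the small subunit because of its symbol. Most members lie between 1000 and 6512 CPM in both libraries, and Rpl29, Rps27rt, Rps19bp1 and Rpl7l1 lie under 150.

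The start regions of the members carried pyrimidine runs more often than those of other genes. RefSeq start regions (GRCm38.p6, 250 bases before to 50 bases after each annotated start) were matched for 63 of the 83 members, with 74 start sites, and set against 32851 start sites of 27025 genes. Within 30 bases on either side of the start, 48.6% of the member sites had a run of at least 8 pyrimidines on the transcribed strand, against 22.9% of all sites. The letters CTCTTT on the same strand in that window were found at 14.9% of the member sites and 2.29% of all sites. Over all 300 bases and both strands, CCGGAAG was found at 35.1% against 8.86%, and GGGCGG at 62.2% against 35.7%; these counts of letters are not binding sites.

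The 60 bases around the start are printed for 6 members that stand out in the results: 2 with low ratios between libraries (Rpl9 and Rps6), 3 of the 5 with the widest range of their share over cell clusters (Rps26, Rpl22l1 and Rpl38), and Rpl35 with its long run. Each reads 5′ to 3′ on the strand of the gene, from 30 bases before the annotated start. Capitals mark the longest pyrimidine run. The 6 windows were chosen and do not represent the members, whose 74 sites had a median longest run of 7 bases. The regions, in the order printed, are chr5:65391402-65391461 (minus strand), chr4:86857338-86857397 (minus), chr10:128626477-128626536 (minus), chr3:28805478-28805537 (plus), chr11:114668550-114668609 (plus) and chr2:39005102-39005161 (minus).
Rpl9: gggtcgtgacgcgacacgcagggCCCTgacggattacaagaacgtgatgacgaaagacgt
Rps6: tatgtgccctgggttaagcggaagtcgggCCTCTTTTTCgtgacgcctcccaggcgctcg
Rps26: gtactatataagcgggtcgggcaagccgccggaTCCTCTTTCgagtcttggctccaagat
Rpl22l1: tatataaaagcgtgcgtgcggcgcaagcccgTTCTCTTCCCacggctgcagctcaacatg
Rpl38: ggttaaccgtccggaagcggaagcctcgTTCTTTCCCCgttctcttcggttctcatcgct
Rpl35: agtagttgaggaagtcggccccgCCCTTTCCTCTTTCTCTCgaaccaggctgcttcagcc
The longest run in these windows was 18 bases in Rpl35, 10 in Rps6, Rpl22l1 and Rpl38, 9 in Rps26 and 4 in Rpl9. The ratio between libraries was about the same with and without these letters. Its median was -0.01 over the 11 members with CTCTTT near the start and 0.01 over the other 52 matched members.

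Between the libraries the members differed little. The log2 ratio of CPM, dko-labelled library over WT-labelled library, had a median of 0.02 over the 83 members, with quartiles of -0.03 and 0.08 and a range from -0.248 to 0.27. Ratios were above 0 for 48 members and below 0 for 35, against 3920 and 5440 of 9360 genes with a mean of at least 5 CPM. Counting error was smaller than most differences of the members, since the interval lay wholly above 0 for 45 and wholly below 0 for 31. These counts were 2106 and 3256 over the 9360 genes, and 94 and 109 over the 236 other genes of high level described below. A log2 ratio of 0.25 was reached by 1 member, Rpl7, while 3.6% of 9360 genes with a mean of at least 5 CPM reached it. No member was at -0.25 or lower, with Rpl9 just short of it, against 6.49% of all genes. With 1 library per genotype no test was possible for these counts. The median over all these genes was -0.03, and that over 236 other genes with mean levels from 427 to 10935 CPM (median 705 CPM, below the members' 2851) was -0.01.

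Rpl7 and Rpl9 stood outside the other members, at more than 3 scaled median absolute deviations from the median ratio. Rpl7 (ENSMUSG00000043716; GRCm38, GENCODE vM21, chr1:16101295-16104662) encodes a large subunit protein and went from 3259 to 3925 CPM (log2 ratio 0.27, 0.26 to 0.28). Rpl9 (ENSMUSG00000047215; chr5:65388364-65391444), also of the large subunit, went from 2868 to 2415 CPM (log2 ratio -0.248, -0.26 to -0.24). Both were seen in each of the 6 clusters with at least 100 cells, where Rpl7 ranged from 0.18 to 0.41 and Rpl9 from -0.29 to -0.19. The low-UMI barcodes gave nearly the same ratios, 0.26 for Rpl7 and -0.23 for Rpl9. Clusters and low-UMI barcodes are parts of the same libraries from which Rpl7 and Rpl9 were picked, so this agreement is no separate check. Across the members, the ratios within a cluster correlated with those of the whole libraries at 0.83 (cluster 3) to 0.98 (cluster 1).

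Rpl9 has annotated copies in the count tables. Rpl9-ps6, a processed copy that the symbol rule leaves out, went from 68.2 to 54.3 CPM (log2 ratio -0.33), in the same direction as Rpl9. Of the other 2 pseudogenes compared, Rpl10-ps3 was lower in the dko-labelled library (-0.24, -0.34 to -0.14), beside -0.005 for Rpl10. Rpl36a-ps1 was at -0.03 with an interval that held 0 (-0.09 to 0.03), beside -0.04 for Rpl36a. A second counted copy, Rpl9-ps1, had 3 UMIs in the WT-labelled library and 0 in the other. Whether reads of Rpl9 and its copies were exchanged was not tested.

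The next highest ratios belonged to Rps15, Rps19bp1, Rpl41 and Rpl21. Rps15, in the head of the small subunit, went from 2198 to 2574 CPM (log2 ratio 0.23, 0.22 to 0.24). Rpl41, the shortest of the ribosomal proteins, went from 4304 to 5013 CPM (0.22, 0.21 to 0.23). Rpl21 went from 1834 to 2126 CPM (0.21, 0.20 to 0.22) and Rps19bp1 from 76.6 to 89.6 CPM (0.23, 0.18 to 0.27). Rps15, Rpl41 and Rpl21 were higher in the dko-labelled library in all 6 large clusters, with lowest values of 0.19, 0.18 and 0.16. Rps19bp1 ranged from 0.00 to 0.32. These genes were picked by the ratio over whole libraries, which contain the clusters, so this is no separate check. Rplp1, with a small ratio of 0.02, was also higher in all 6, from 0.03 to 0.07, while Rpsa, also at 0.02, was higher in 5.

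The lowest ratios after Rpl9 belonged to Rps6, the small subunit protein phosphorylated by S6 kinases, and to Rps24, mutated in some patients with Diamond-Blackfan anaemia. Rps6 went from 1778 to 1603 CPM (-0.15, -0.16 to -0.14) and Rps24 from 3092 to 2812 CPM (-0.14, -0.15 to -0.13). Rpl22 went from 2609 to 2385 CPM (-0.13, -0.14 to -0.12) and Rpl29 from 77.9 to 72.0 CPM (-0.11, -0.16 to -0.06). Rps6, Rps24 and Rpl22 were lower in all 6 large clusters, and Rpl29 in 5 of the 6. As these genes too were picked by the ratio over whole libraries, this is no separate check. Rpl13, with a small ratio of -0.03, was also lower in all 6, while Rps12, at -0.02, was lower in 3.

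The ratio followed the GC content of the transcripts. Across the 83 members Spearman's rho between the ratio and transcript GC content was 0.42 (Pearson's r 0.38). The same measures over 9111 other genes were 0.43 and 0.35, so the relation was of similar size outside the members; genes in these correlations share their libraries and are not independent replicates. Among the 28 members with the lowest GC content 8 ratios were above 0 and 20 below. Among the 27 with the highest GC content 20 were above 0 and 7 below. Rpl7 did not follow the relation, with a GC content of 47.7% and the highest ratio. The part of GC content in the other ratios was not tested.

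**Figure D2:**
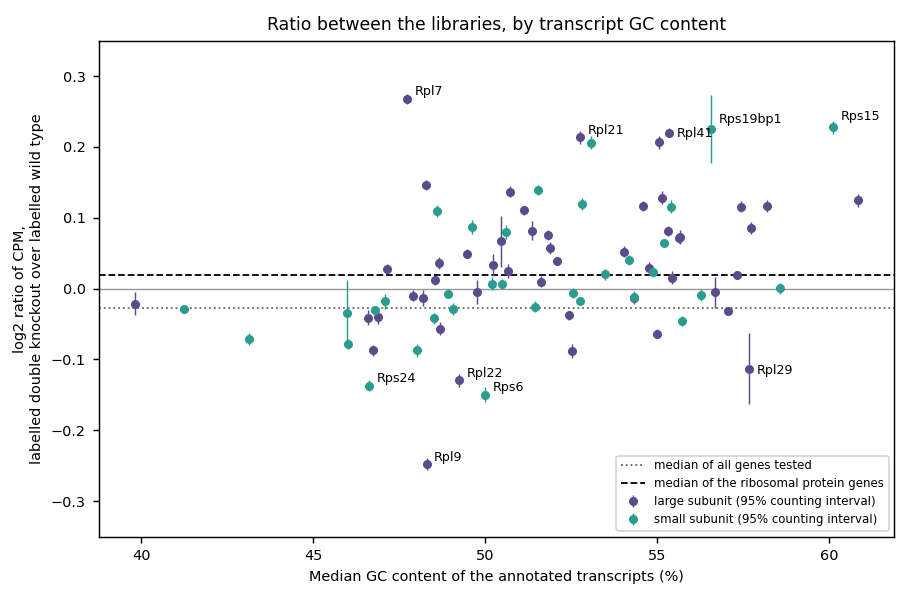
Log2 ratio of CPM between the libraries for each member (y axis) against the median GC content of its annotated transcripts in percent (x axis); bars are 95% counting intervals, the dashed line is the median of the members at 0.02 and the dotted line that of all genes at -0.03. The points tend to rise from left to right, with Rpl7 above and Rpl9 below the rest.

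Genes that work with the ribosomal proteins were compared in the same way, and over all genes 3.6% reached 0.25 and 6.49% reached -0.25. Ribosomal proteins that carry other names included Rack1, a scaffold on the small subunit (3574 and 3793 CPM, log2 ratio 0.09), and Fau (2114 and 2235 CPM, 0.08). Neither reached 0.25 in size. Among 20 other mRNAs of the translation apparatus with a TOP motif, none reached 0.25 in size, 14 ratios were below 0 and the median was -0.05. The lowest of them were the poly(A) binding protein gene Pabpc1 (991 and 858 CPM, -0.21), Eif2s3x (119 and 105 CPM, -0.18) and Hnrnpa1 (1031 and 920 CPM, -0.16).

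Of 44 ribosome assembly genes, 3 reached 0.25 and none -0.25, with a median of 0.04. Ratios were above 0 for 25 of the 44 and below 0 for 19. The 3 were Mrto4 (200 and 254 CPM, 0.35, 0.32 to 0.38), Eif6 (158 and 189 CPM, 0.25, 0.22 to 0.29) and Bop1 (37.8 and 44.9 CPM, 0.25, 0.18 to 0.32). The intervals of Eif6 and Bop1 held 0.25. None of 14 RNA polymerase I genes, which transcribe the ribosomal RNA, reached 0.25 in size, with a median of 0.04. Of 78 mitochondrial ribosomal protein genes, 1 was past 0.25 in each direction, with a median of 0.06. They were Mrpl58 (74.3 and 88.4 CPM, 0.25) and Mrps28 (45.7 and 30.8 CPM, -0.57). The 13 mitochondrially encoded genes had a median of 0.07, and 1 of them, mt-Nd3 at 0.27, reached 0.25.

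Cells of both libraries were clustered together without the ribosomal protein genes, which gave 8 clusters. Cluster 0 was streak-like (led by Mixl1, Gsc, Fgf8 and Eomes), cluster 4 naive-like (Dppa3), cluster 5 neural-like (Pou3f2, Sox1 and Hes5) and cluster 7 extraembryonic-endoderm-like (Cubn). Clusters 1, 2, 3 and 6 were left without a name. Cluster 1 was led by Irx3 and Gbx2, and cluster 2 by Cdx2. Cluster 6 had Ddit3 and Pmaip1 in front, which respond to stress and mark no cell type, and had fewer naive markers (only Tbx3) than stress genes among its 10 leading genes. Cluster 3 had few mitochondrial UMIs. The values below describe these clusters, and no test was made between them.

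In clusters 0 and 1 no member was 0.25 or more (log2 CPM) above or below the other cells in both libraries. Among all genes 3.82% were above and 6.07% below in cluster 0, and 6.43% and 5.28% in cluster 1. In 5 of the 6 large clusters the ribosomal protein share was nearly the same. It ran from 23.8% in cluster 5 to 23.9% in cluster 1 in the WT-labelled library. In the dko-labelled library it ran from 24.3% in cluster 0 to 24.8% in cluster 4. In each of these 5 clusters the dko-labelled library was the higher one. The naive-like cluster 4 had 23.8% and 24.8%, and the neural-like cluster 5 had 23.8% and 24.6%.

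Cluster 3 held a larger share, 31.0% (31.0 to 31.1) over 330 cells in the WT-labelled library and 31.6% (31.5 to 31.7) over 360 cells in the dko-labelled library. Its median cell had 0.23% mitochondrial UMIs in each library, against 3.80% and 4.06% over all cells, and 3662 and 3228 UMIs. The nuclear RNA Malat1 was at 220 and 118 CPM there, against 2637 and 2303 CPM in the other cells. Without mitochondrial genes in the total its share was still 31.2% and 31.7%, against 24.8% and 25.4% in the other cells. In this cluster 71 members were at least 0.25 (log2 CPM) above the other cells in both libraries, beside 11% of all genes, and 53.6% of all genes were as far below. What part the low mitochondrial UMIs and depth have in this was not tested.

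The small cluster 6 had a share of 30.2% over 34 cells and 30.4% over 68 cells, again with few mitochondrial UMIs (medians of 0.24% and 0.41%) but with Malat1 at 13633 and 10264 CPM. The lowest share was that of the extraembryonic-endoderm-like cluster 7, with 16.8% (16.6 to 16.9) over 23 cells and 17.5% (17.3 to 17.6) over 21 cells. Its mitochondrial medians of 4.91% and 5.30% were the highest of the 8 clusters, with cluster 4 next at 4.56% and 4.65%.

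Single cells varied more than counting alone gives. With every cell thinned to 2500 UMIs, the share had a median of 24.0% in the WT-labelled library and 24.5% in the dko-labelled library. Its standard deviation over cells was 2.55 and 2.61 percentage points, against 0.857 and 0.863 from binomial counting. Without clusters 3 and 6 it was 2.04 and 2.12. In the deepest of 4 equal groups of cells by depth the share was 23.6% and 24.2%, and in the shallowest it was higher in both libraries, with 25.4% in the dko-labelled one. Cells scored as S phase had 23.7% and 24.2%, G2/M cells 24.0% and 24.5%, and the few G1 cells (146 and 169, with lower median depth) 24.5% and 25.8%.

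Which ribosomal protein genes made up the share was compared as the log2 ratio of each member's share of ribosomal protein UMIs, cluster against the other cells of the same library. These profiles differed least in clusters 0 and 1, with a standard deviation over the 83 members of 0.04 to 0.05. In clusters 2 and 3 it reached 0.17 and 0.13 in the WT-labelled library and 0.15 and 0.12 in the other. Across the 83 members the profiles of the libraries correlated with Pearson's r from 0.76 in cluster 1 to 0.93 in cluster 2, as a description over genes that share cells and clustering. The members with the widest range over clusters were Rpl22l1, Rps26, Rpl27, Rpl26 and Rpl38.

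**Figure D3:**
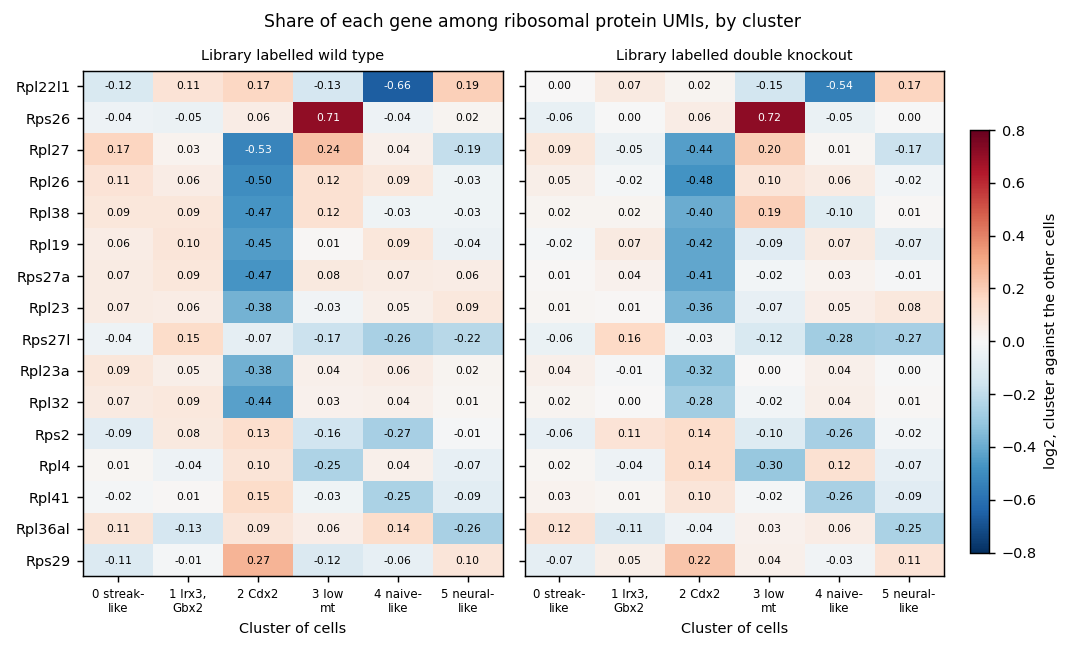
Log2 ratio of a gene's share of ribosomal protein UMIs, cluster against the other cells of the same library, for the 16 members with the widest range (rows) in the 6 large clusters (columns), with the WT-labelled library on the left and the dko-labelled library on the right. The strongest cells are Rps26 in cluster 3 (0.71 and 0.72), Rpl22l1 in cluster 4 (-0.66 and -0.54) and a block of genes in cluster 2.

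Rps26, which contacts the mRNA just upstream of the start codon, stood apart in cluster 3. It was at 5726 CPM there and 2697 CPM in the other cells of the WT-labelled library, and at 6194 and 2909 CPM in the dko-labelled library. Its share of ribosomal protein UMIs was therefore 0.71 (0.67 to 0.74) and 0.72 (0.68 to 0.75) higher on the log2 scale. No other member's share was past 0.25 in both libraries in cluster 3 in the upward direction. Rpl27 came next with 0.24 and 0.20, and Rpl4 was lowest with -0.25 and -0.30.

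Rpl22l1, the paralog of Rpl22, set the naive-like cluster 4 apart. Rpl22 protein is known to hold down Rpl22l1 expression in mouse cells, and one can replace the other in the ribosome. Rpl22l1 was at 472 CPM in cluster 4 and 750 CPM in the other cells of the WT-labelled library, and at 514 and 737 CPM in the dko-labelled library. For each 100 UMIs of Rpl22 there were 16.6 (15.7 to 17.5) and 19.7 (18.7 to 20.8) UMIs of Rpl22l1 in cluster 4. Over all cells there were 28.3 and 30.6, and in the neural-like cluster 5 there were 33.8 (32.1 to 35.5) and 36.0 (33.9 to 38.2). The naive-like cluster was thus the lowest and the neural-like cluster the highest of the 6 large clusters in both libraries.

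In cluster 4, 2 members were at least 0.25 below the other cells in CPM in both libraries, against 17.8% of all genes, and none as far above. They were Rpl22l1 and Rps27l. In share of ribosomal protein UMIs 4 members were past -0.25 in both libraries, the others being Rps2 (-0.27 and -0.26) and Rpl41 (-0.25 and -0.26). In cluster 5 no member was past 0.25 in CPM in both libraries in either direction, where 17.7% of all genes were above and 11.3% below.

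Rps27l, a paralog of Rps27 known as a target of p53, was the more abundant partner over all cells. There were 134 UMIs of Rps27l per 100 UMIs of Rps27 in the WT-labelled library and 120 in the dko-labelled library. The number was 105 and 88.2 in the neural-like cluster 5. In cluster 6, with Ddit3 and Pmaip1 among its 10 leading genes, it was 63.1 (55.6 to 71.5) and 69.0 (63.0 to 75.7). It was highest in cluster 7, with 160 (140 to 183) and 159 (139 to 183). In the WT-labelled library that interval overlapped the one of cluster 1, at 140 (138 to 141). The retrogene copy Rps27rt gave 4.49 and 4.14 UMIs per 100 of Rps27.

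Rpl36al, a copy of Rpl36a, gave 48.7 and 51.3 UMIs per 100 of Rpl36a over all cells. In the neural-like cluster it gave 38.3 (36.2 to 40.6) and 40.6 (37.9 to 43.4), and in the naive-like cluster 57.4 (54.8 to 60.2) and 55.8 (53.2 to 58.6), so the naive-like cluster was above the neural-like one, opposite to Rpl22l1. Rpl7l1, a homolog of Rpl7, gave 4.25 and 3.70 UMIs per 100 of Rpl7. Its own level differed by 0.07 on the log2 scale between the libraries, and Rpl7 by 0.27.

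**Figure D4:**
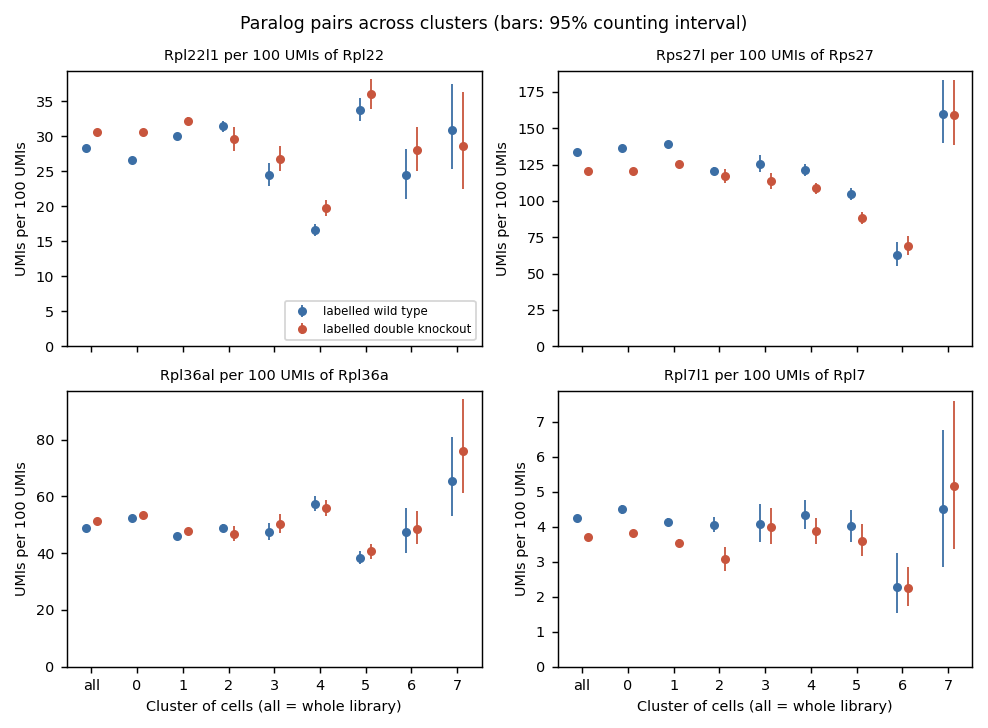
UMIs of a paralog per 100 UMIs of its partner (y axes from 0) over all cells and in clusters 0 to 7 (x axes), with blue points for the WT-labelled and red points for the dko-labelled library and bars for 95% counting intervals. Rpl22l1 is lowest in cluster 4 (16.6 and 19.7), and Rps27l is lowest in cluster 6 (63.1 and 69.0).

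In cluster 2, 8 members were at least 0.25 below the other cells in CPM in both libraries, against 12.1% of all genes, and none as far above. Of these, 7 were all the members on chromosome 11. The log2 ratio of the share of ribosomal protein UMIs was -0.53 and -0.44 for Rpl27, -0.50 and -0.48 for Rpl26, and -0.47 and -0.40 for Rpl38, which is known for its role in the translation of Hox mRNAs in mouse embryos. The eighth, Rpl32 on chromosome 6, was at -0.44 and -0.28. The whole ribosomal protein share in this cluster was 23.9% and 24.3%, close to the other cells.

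These members were also compared between cells sorted by the other genes of their chromosomes. In each cell with at least 4000 UMIs, the share of UMIs from the genes of a chromosome that are not members was taken, and a cell was called low at 0.8 times the median or less. On chromosome 11 the low cells were 18.2% (17.3 to 19.0) of 7843 cells in the WT-labelled library and 6.16% (5.68 to 6.67) of 9332 cells in the dko-labelled library. In cluster 2 they were 90.3% and 79.5% of its cells.

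In cells low on chromosome 11 all 7 members of that chromosome were lower than in the other cells. Rpl27 was at 3856 against 5882 CPM in the WT-labelled library and at 3763 against 5498 CPM in the dko-labelled library. The log2 ratios of the 7 genes (Rps27a, Rpl26, Rpl23a, Rpl23, Rpl19, Rpl27 and Rpl38) ran from -0.61 to -0.42 with a median of -0.53, and from -0.60 to -0.44 with a median of -0.53. The median of 653 other genes of chromosome 11, which is low by construction because these genes made the call, was -0.50 and -0.53. The 75 members on chromosomes other than 6 and 11 had medians of 0.09 and 0.06.

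Past -0.25 in these cells were 8 members in the WT-labelled library (the 7 and Rpl32), beside 18.4% of all genes, and 7 in the dko-labelled library, beside 18.3%. Past 0.25 were Rpsa and Rps29 in the WT-labelled library, beside 17.4% of all genes, and Rpl7, Rpl37a, Rpsa and Rpl30 in the dko-labelled library, beside 18.3%. The whole ribosomal protein share was no lower, with 24.0% in low cells and 23.9% in other cells of the WT-labelled library, and 24.7% and 24.4% in the dko-labelled library.

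Rpl32 is the only member on chromosome 6 (GRCm38, chr6:115805505-115808747). Cells low on chromosome 6 were 21.7% and 18.9% of the cells. In them Rpl32 was at 3566 against 5105 CPM in the WT-labelled library and at 3751 against 5494 CPM in the dko-labelled library. Its log2 ratios of -0.52 (-0.53 to -0.51) and -0.55 (-0.56 to -0.54) stand beside medians of -0.48 and -0.54 for the 376 other genes of chromosome 6, which again made the call. In cluster 2 they were 77.8% and 58.7% of its cells. Past -0.25 in cells low on chromosome 6 were 7 members in the WT-labelled library (Rpl32 and 6 of chromosome 11), beside 14.8% of all genes. In the dko-labelled library Rpl32 alone was past it, beside 11.5% of all genes. Upward, Rpl22l1 and Rps29 were past 0.25 in the WT-labelled library, beside 11.5% of all genes, and Rpl22l1 in the other, beside 7.25%.

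**Figure D5:**
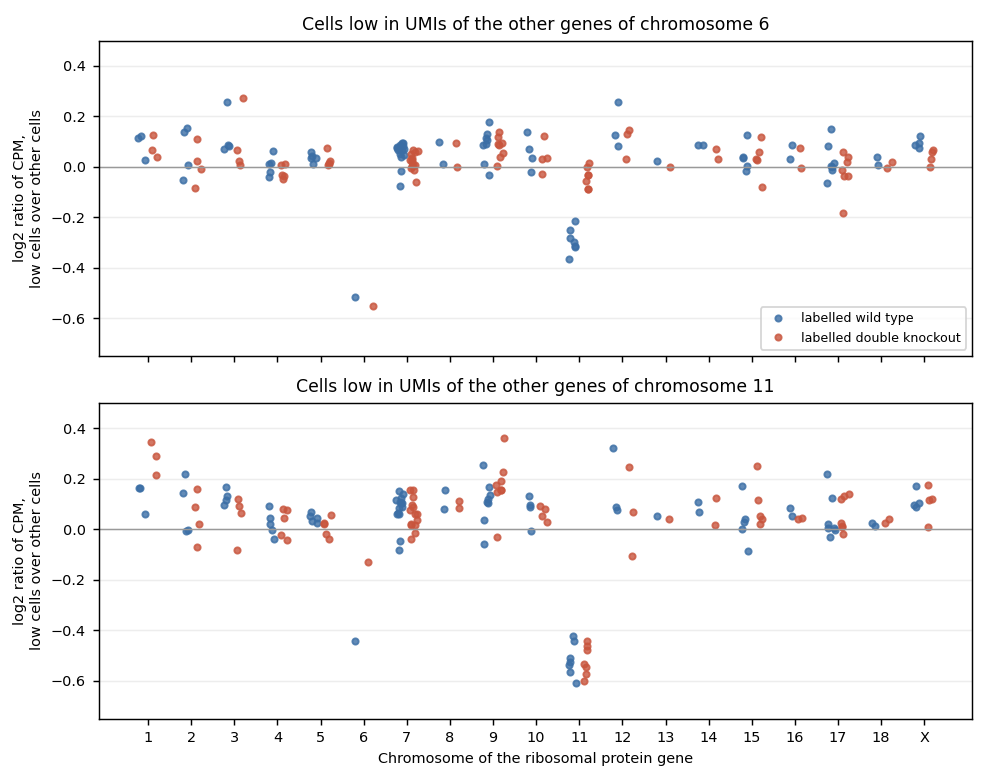
Log2 ratio of CPM for each member, low cells over other cells (y axes), by the chromosome of the member (x axis), for cells low on chromosome 6 (top) and chromosome 11 (bottom), in the WT-labelled (blue) and the dko-labelled library (red). Rpl32 lies at -0.52 and -0.55 in the top panel, and the 7 members of chromosome 11 lie between -0.61 and -0.42 in the bottom panel.

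Without the low cells the cluster 2 pattern was smaller. With the cells low on chromosome 6 or 11 left out, 31 and 15 cells remained in cluster 2. There the median over the 7 chromosome 11 members went from -0.47 to -0.27 in the WT-labelled library and from -0.41 to -0.08 in the dko-labelled library. Rpl32 went from -0.44 to -0.24 and from -0.28 to -0.05.

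The spread over cells was widest for some of the same genes. The Fano factor, the variance over the mean of a gene's UMIs over cells thinned to 2500 UMIs, is 1 under counting alone, and its median over the members was 1.08 to 1.09 in clusters 0 and 1 of both libraries. Rpl32 had the highest value, from 1.28 to 1.39 over these 4 sets of cells, followed, by the mean of these sets, by Rpl27 from 1.20 to 1.31. In cells that were low on neither chromosome, Rpl32 had values from 1.11 to 1.15 and Rpl27 from 1.13 to 1.20. The Fano factor was not adjusted for level. The 5 members of lowest level had means over the 4 sets from 0.99 to 1.02, so members of unlike level cannot be ranked by spread alone.

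Rpl7 differed in spread between the libraries as well as in level. Its Fano factor was 1.29 in both clusters of the dko-labelled library, and 1.09 and 1.07 in clusters 0 and 1 of the WT-labelled library. In cells low on neither chromosome it was still 1.23 and 1.28 against 1.09 and 1.05. Rplp1, with the highest level of all members, lay between 1.16 and 1.26 in the 4 sets.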

How the data were processed

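The libraries were made with 10x Genomics 3′ chemistry, per the labels. The deposited values are raw UMI counts for each gene in each of 6794880 listed barcodes. Cell Ranger 8.0.1 is named per the labels' protocols, and STARsolo, STAR 2.7.9a, Seurat 5.1.0 and mm10 per the submitters' processing notes; which of them made the deposited counts is not given in the sources used here. The labels state 9238 and 11190 captured cells.

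Barcodes with at least 2500 UMIs (8772 in the WT-labelled library and 10613 in the dko-labelled library), at least 1000 genes and at most 10% mitochondrial UMIs were kept. Doublets were scored against simulated doublets and the highest scores removed at 0.8% per 1000 cells (606 and 897 cells). The counts of all cells of a library were added up and scaled to CPM, and ratios used a pseudocount of 0.5 UMIs. Depth is given in the report, and intervals are exact Poisson (levels), conditional (ratios) and Clopper-Pearson (shares). Genes with a mean of at least 5 CPM were compared, with a fold of 0.25 on the log2 scale. Cells were clustered with the Leiden method (leidenalg 0.10.2) at a resolution of 0.5, from 15 neighbours in 30 principal components of 2000 variable genes. Ribosomal, mitochondrial and cell cycle genes, Sp5 and Sp8 were left out. A cluster was named from markers, where at least 1 was among its 10 leading genes and at least 3 were 1.5-fold higher, and where no other class had more among the leading genes. Analyses used Python 3.11.15, numpy 2.4.6, scipy 1.17.1 and pandas 2.3.3. The ratio step was tested on simulated data, where all 200 changed genes among 9360 were recovered. Their changes were 0.5 or 1 in size on the log2 scale. Smaller changes, such as those of the members, and variation between libraries were not simulated.

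The members and lists were chosen with earlier results of these data known. Members were named by rule: the 5 highest and 5 lowest levels and ratios, those beyond 3 scaled median absolute deviations, the 5 widest over clusters, paralog pairs and members that are no subunit. In each list the 3 largest ratios were named. One gene of the list of ribosomal proteins under other names is not reported here and was left out of that list. Other members (Rplp0, Rplp2, Rpl32, Rpl4, Rps2, Rps27a, Rpl19, Rpl23a, Rpl37a, Rpl30, Rpsa, Rps29, and Malat1 outside them) were named after their values were seen.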

Additional observations from a re-analysis of the deposited data

Results flagged for a closer look

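The ribosomal protein share of clusters 4 and 5 lay on opposite sides of the other cells in the libraries. In the naive-like cluster 4 it was 23.8% against 24.0% in the other cells of the WT-labelled library, and 24.8% against 24.5% in the dko-labelled library, so the log2 difference between the libraries was 0.031. In the neural-like cluster 5 the values were 23.8% against 24.0% and 24.6% against 24.5%, a log2 difference of 0.018. Without mitochondrial genes in the total, cluster 4 was above the other cells in both libraries (24.94% against 24.92% and 26.0% against 25.5%), so the direction in the WT-labelled library turns with the denominator. Cluster 5 then had 24.8% against 24.9% and 25.7% against 25.5%. With 1 library per genotype these differences were not tested.

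Barcodes with 10 to 100 UMIs, which enter no comparison between cells, held 27.95% ribosomal protein UMIs in the WT-labelled library and 28.61% in the dko-labelled library, more than the cells did. Their mitochondrial share was 2.89% and 3.00%.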

How the results depend on the processing

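No paired analysis was possible because each genotype has 1 library. Values of single members under alternatives cover the 27 members named by rule, not all 83. Of these values, 165 moved by less than their counting interval and 74 moved by more. A further 4 changed sign from a value whose interval excluded 0. Rpl22l1 turned to 0.0072 under TMM scaling and 0.0055 with equal cluster weights, Rps12 to 0.012 under TMM, and Rpl23 to -0.0029 in cells low on neither chromosome 6 nor 11. Rpl35 and Rps27rt, whose intervals held 0, also crossed 0, with Rpl35 at 0.023 under TMM and Rps27rt at 0.012 when thinned. The cells low on neither chromosome and the set without the low-mitochondrial clusters were chosen after seeing the data.

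The ribosomal protein share (WT label, then dko) was 23.91% and 24.40% at a minimum of 4000 UMIs, 24.00% and 24.52% at a mitochondrial limit of 5%, and 23.88% and 24.37% with doublets kept. It was 24.22% and 24.71% when thinned, 23.83% and 24.34% without the low-mitochondrial clusters, and 23.89% and 24.37% in cells low on neither chromosome. The dko-labelled library was the higher one each time. The median member ratio was 0.035 on the total without mitochondrial and member genes and 0.048 under TMM. Members at 0.25 or more numbered 3 under TMM, and 1 member (Rpl9) was at -0.25 or lower with doublets kept. At a fold of 0.15 there were 7 higher and 1 lower, and at 0.5 there were 0 higher. The shares over all genes under these settings are not given here, so these counts describe the members only.

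List medians moved as follows. Ribosomal proteins under other names gave 0.098 on the total without mitochondrial and member genes, 0.11 under TMM, 0.072 thinned, 0.072 with equal weights and 0.069 in cells low on neither chromosome. TOP mRNAs gave -0.038 on that total and -0.025 under TMM. Mitochondrially encoded genes gave 0.040 at the 5% limit, 0.090 on that total, 0.10 under TMM, 0.061 thinned and 0.087 at a minimum of 50 CPM.

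Cluster 3 held 30.93% and 31.28% at 4000 UMIs. Of the other 5 large clusters, the lowest was 23.71% and 24.30% at a resolution of 0.3 and 23.59% and 24.22% at 1.0, where the highest was 24.27% and 24.90%. With doublets kept the highest was 23.86% and 24.72%, and the lowest 23.89% in the dko-labelled library. Cells with both phase scores under the pooled medians (1536 and 2105 cells) held 24.15% and 24.85%. They are a larger set than the G1 cells above.

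Depth limits the ratios of single members over whole libraries little, since the lowest member had 6096 UMIs in a library. The share differed with cell depth, and the dko-labelled library was the shallower one (median cell 8416 against 10344 UMIs). Cells of 8456 to 10344 UMIs in the WT-labelled library held 23.91%. Cells of similar depth in the dko-labelled library, from 8416 to 10203 UMIs, held 24.40%. What part depth has in the difference between the libraries was not tested. Counts in small clusters were low, such as 24 and 27 UMIs of Rpl7l1 in cluster 7. The main limit is 1 library per genotype, so no variation between cultures is known, and library, batch and genotype cannot be told apart.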
